A study of Rattus norvegicus with 24 samples.

Results

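The genes Kcnh5 (ENSRNOG00000009542), Kcnh7 (ENSRNOG00000007528) and Kcnj4 (ENSRNOG00000013869) encode pore-forming subunits of potassium channels, and they are 3 of the 32883 genes counted in RNA from the rostral posterior hypothalamic (rPH) region of the rat. They were chosen from measured values, because the C versus RS7, AS versus RS7 and AS versus RS3 comparisons of these rats had already singled them out. All 3 were among the 16202 genes that passed the filter on low counts. The study asked how gene expression in the rPH region differs after a stressor is met repeatedly, using adult male Sprague-Dawley rats from Envigo that were placed daily in sound-attenuating chambers over 7 days. The control (C) rats heard fan noise at background level only. The acute stress (AS) rats had 1 loud noise exposure, on the last day, the RS3 rats had 3 exposures and the RS7 rats had 7, always 1 per day. All rats were sampled for blood on the last day and killed 24 h after that day's session. Each library came from 1 rat, 6 rats were prepared per group, and the 5 per group that the study retained are compared here, so that every group has n = 5 unless stated otherwise.

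Kcnh5 belongs to the ether-a-go-go family of voltage-gated potassium channels, and Kcnh7 to its ERG (ether-a-go-go-related gene) branch. Both kinds of channel open on depolarization and pass outward current, and ERG channels are known for damping repetitive firing in neurons. Kcnj4 encodes an inward rectifier of the strongly rectifying class, which holds the resting potential of neurons near the potassium equilibrium and closes as the cell depolarizes. The block of tissue included the rPH region and was cut around the mammillothalamic tracts, and the values below are averages over all its cell types. In such bulk samples, fewer cells of a type and less RNA per cell cannot be told apart.

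The upstream regions of the 3 genes are shown because Kcnh5 and Kcnh7 varied together from rat to rat while Kcnj4 differed between groups in the opposite direction. All 3 symbols matched the RefSeq promoter table of build GRCr8, from which the 250 bases before each annotated start are printed on the strand of the gene, here the minus strand. Capitals mark the GC box hexamer GGGCGG, or its reverse complement, a motif that transcription factors of the Sp family bind.
Kcnh5, chr6:99643857-99644106: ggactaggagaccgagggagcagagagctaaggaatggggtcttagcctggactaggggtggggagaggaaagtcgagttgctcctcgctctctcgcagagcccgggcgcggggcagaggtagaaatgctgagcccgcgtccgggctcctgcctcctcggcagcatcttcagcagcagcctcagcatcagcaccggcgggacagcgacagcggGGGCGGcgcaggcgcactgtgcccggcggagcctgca
Kcnh7, chr3:68230672-68230921: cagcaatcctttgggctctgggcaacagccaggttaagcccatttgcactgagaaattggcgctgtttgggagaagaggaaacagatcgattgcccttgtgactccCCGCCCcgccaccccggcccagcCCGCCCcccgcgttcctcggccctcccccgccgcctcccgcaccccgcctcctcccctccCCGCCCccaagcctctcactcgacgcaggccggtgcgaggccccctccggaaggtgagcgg
Kcnj4, chr7:112954548-112954797: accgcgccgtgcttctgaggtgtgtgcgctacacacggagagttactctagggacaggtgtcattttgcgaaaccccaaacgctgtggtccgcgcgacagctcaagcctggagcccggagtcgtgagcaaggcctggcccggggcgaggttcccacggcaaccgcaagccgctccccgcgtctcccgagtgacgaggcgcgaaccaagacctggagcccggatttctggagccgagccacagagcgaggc
The Kcnh5 window held 1 GC box, the Kcnh7 window 3, and the Kcnj4 window held no match on either strand. Of 33469 windows of this length, 30.5% held at least 1 GC box. The cyclic AMP response element TGACGTCA (1.59% of all windows) and the hexamer AGAACA of glucocorticoid response elements (17.5%) were searched on both strands and had no match in the 3 windows. The GC content was 67.6% for Kcnh5, 69.2% for Kcnh7 and 65.6% for Kcnj4, against a median of 51.2% over all windows. The shares over all windows are not matched for GC content, and a part of these motifs in the levels was not tested. The Kcnh7 window lies within the annotated span of its gene, since another transcript of Kcnh7 starts further upstream.

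Kcnh5 was highest in the RS7 group and lowest in the AS group. Levels in CPM (the count relative to the library total, scaled by library composition) were 4.63, 3.73, 6.39, 5.17 and 5.92 in C rats 19, 21, 22, 23 and 24. They were 4.87, 3.26, 3.21, 2.52 and 3.36 in AS rats 13, 14, 15, 16 and 17. Of the 5 AS rats, 4 lay below the lowest C rat, and AS rat 13 lay among the C rats. In RS3 rats 7, 9, 10, 11 and 12 the values were 5.51, 9.74, 6.65, 5.18 and 8.05 CPM. In RS7 rats 2, 3, 4, 5 and 6 they were 8.01, 13.0, 9.18, 12.0 and 12.1 CPM. Every RS7 rat had more Kcnh5 than every C rat and every AS rat, and every RS3 rat had more than every AS rat, whereas the RS3 rats overlapped both the C and the RS7 rats. The group means ± SD were 5.17 ± 1.05 (C), 3.44 ± 0.867 (AS), 7.03 ± 1.89 (RS3) and 10.9 ± 2.15 CPM (RS7).

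Kcnh7 had the same order of RS3 and RS7 above C, with C and AS close to each other. The C rats, in the same order, had 3.08, 2.93, 4.50, 3.29 and 3.71 CPM, and the AS rats 3.64, 3.83, 3.39, 2.59 and 3.44 CPM. These 2 groups overlapped, with AS rat 16 below every C rat and C rat 22 above every AS rat. The RS3 rats had 3.89, 4.81, 5.12, 3.57 and 5.64 CPM, and the RS7 rats 5.99, 6.19, 5.64, 6.18 and 8.52 CPM. Every RS7 rat lay above every C and AS rat, and RS7 rat 4 lay level with RS3 rat 12, the highest of its group. Group means were 3.50 ± 0.632 (C), 3.38 ± 0.472 (AS), 4.61 ± 0.861 (RS3) and 6.50 ± 1.15 CPM (RS7).

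Kcnj4 ran the other way, with its highest level in the AS group and its lowest in the RS7 group. The C rats had 2.39, 2.00, 1.68, 1.21 and 2.83 CPM and the AS rats 2.26, 4.97, 3.11, 2.12 and 3.27 CPM. The RS3 rats had 2.59, 0.891, 0.976, 1.02 and 1.45 CPM, and the RS7 rats 1.18, 0.322, 0.655, 1.96 and 0.391 CPM. Rat 7 stood above the other RS3 rats and rat 5 above the other RS7 rats, and only the AS and RS7 groups did not overlap. The means were 2.02 ± 0.626 (C), 3.15 ± 1.14 (AS), 1.39 ± 0.709 (RS3) and 0.902 ± 0.68 CPM (RS7). The precision of Kcnj4 is the lowest of the 3, since its raw count per rat was between 4 and 61, against 28 to 190 for Kcnh5 and 22 to 109 for Kcnh7. The biological coefficient of variation in the edgeR fit was 35.5% for Kcnj4, 17.5% for Kcnh5 and 11.2% for Kcnh7.

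**Figure D1:**
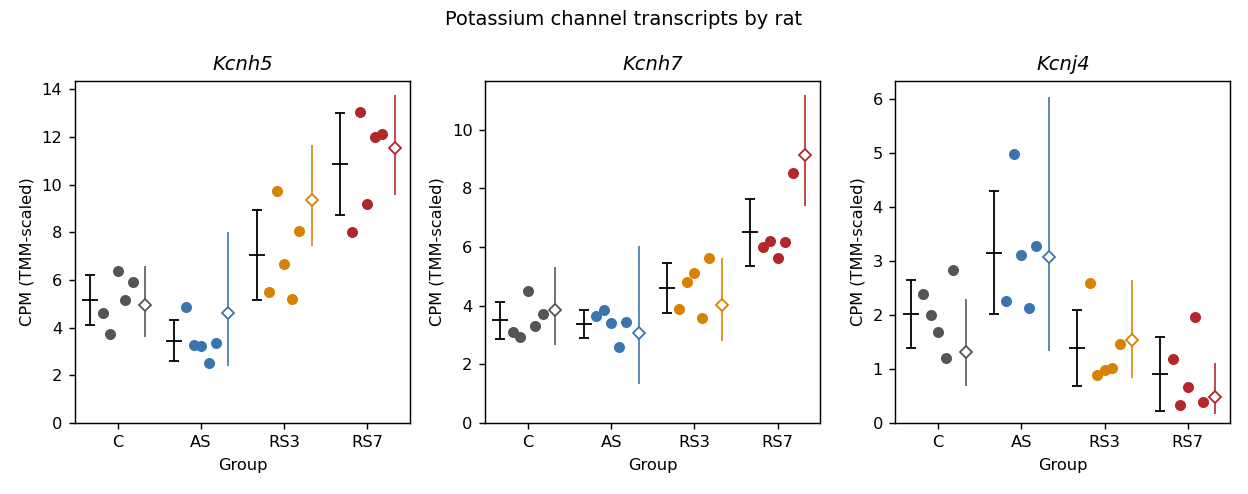
CPM (y axis, starting at 0) of each gene by group (x axis). Filled circles are the 20 retained rats, bars at the left of each group are mean ± SD (n = 5), and open diamonds are the rat per group that the study left out, with 95% Poisson intervals. The RS7 rats lie above all retained C and AS rats for Kcnh5 and Kcnh7, and Kcnj4 is lowest in the RS7 group, with a mean of 0.902 CPM.

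The comparisons that chose the genes are given as a description, without a p. From C to RS7, Kcnh5 differed by a log2 fold change of 1.06 (SE 0.181, 2.08-fold), Kcnh7 by 0.89 (SE 0.151, 1.85-fold) and Kcnj4 by -1.09 (SE 0.403, 2.13-fold lower in RS7). From AS to RS7, the log2 fold change was 1.64 (SE 0.189, 3.12-fold) for Kcnh5, 0.94 (SE 0.149, 1.92-fold) for Kcnh7 and -1.73 (SE 0.372, 3.32-fold lower in RS7) for Kcnj4. From AS to RS3 it was 1.04 (SE 0.198) for Kcnh5, 0.46 (SE 0.156) for Kcnh7 and -1.26 (SE 0.359) for Kcnj4. These 3 comparisons share rats, so their values for a gene are not separate evidence. In C versus RS7, Kcnh5 and Kcnh7 were called at a Benjamini-Hochberg adjusted p of at most 0.05 in edgeR and also did not overlap, where 0.148% of the 16202 genes tested were called and 3.59% did not overlap. In AS versus RS7, all 3 genes were called and had groups that did not overlap, beside 1.67% and 4.08% of all genes. Both comparisons chose the genes, so these counts are fixed by the choice and nothing is read from them. In AS versus RS3, edgeR called 0 of the 3 genes, as it called 0% of all genes. DESeq2 called 1 gene in all, Kcnh5, and limma-voom called 0 of the 3 and 0 of all genes. The groups did not overlap for Kcnh5, beside 0.889% of all genes. This comparison chose the genes as well, so nothing is read from these counts either. At an unadjusted p under 0.05, edgeR had 747 of the 16202 genes in AS versus RS3.

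The edgeR calls of Kcnh5 and Kcnh7 in AS versus RS7 held when each rat was left out in turn, whereas the other edgeR calls depended on single rats. Both comparisons behind these calls chose the genes, so a call that held is not support for a difference. Neither Kcnh5 nor Kcnh7 was called in C versus RS7 without 1 of RS7 rats 3 and 6 or C rats 19 and 21, and Kcnh5 was not called without RS7 rat 5. The log2 fold change itself stayed between 0.98 and 1.15 for Kcnh5 and between 0.78 and 0.98 for Kcnh7 when each rat was left out in turn. The call of Kcnj4 in AS versus RS7 was lost without 1 of RS7 rats 3 and 6 or AS rats 14 and 17, and its log2 fold change ranged from -2.25 without RS7 rat 5 to -1.50 without AS rat 14.

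The C versus AS, C versus RS3 and RS3 versus RS7 comparisons did not choose the genes, although they share rats with those that did, and in the edgeR quasi-likelihood test, Benjamini-Hochberg adjusted over all 16202 genes, none of the 3 genes passed 0.05 in any of them. After 1 exposure, Kcnh5 had a log2 fold change of -0.58 against C (SE 0.211, 95% interval -1.02 to -0.15, adjusted p = 0.461 in edgeR). Kcnj4 had 0.64 (SE 0.344, interval -0.07 to 1.36, edgeR adjusted p = 0.528), and Kcnh7 -0.05 (SE 0.166, interval -0.39 to 0.29, edgeR adjusted p = 0.945). For Kcnh7 the interval leaves room for a difference in either direction. DESeq2 and limma-voom called 0 of the 3 genes as well. Without AS rat 14 the value of Kcnj4 was 0.41. In the comparison of C with AS, edgeR called 0% of all genes while 1625 had an unadjusted p under 0.05, and 1.17% of genes, none of the 3 among them, did not overlap.

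After 3 exposures, Kcnh5 and Kcnh7 both lay above C, by log2 fold changes of 0.46 (SE 0.190, 95% interval 0.06 to 0.85, adjusted p = 0.251 in edgeR) and 0.41 (SE 0.158, interval 0.09 to 0.74, adjusted p = 0.230 in edgeR). The value for Kcnj4 was -0.62 (SE 0.388, interval -1.42 to 0.19, edgeR adjusted p = 0.432). From RS3 to RS7 the differences had the same signs as from C to RS3. They were 0.60 for Kcnh5 (SE 0.170, interval 0.25 to 0.95, adjusted p = 0.619 in edgeR), 0.48 for Kcnh7 (SE 0.142, interval 0.19 to 0.77, adjusted p = 0.619 in edgeR) and -0.48 for Kcnj4 (SE 0.422, interval -1.35 to 0.40, edgeR adjusted p = 0.793). All intervals for Kcnh5 and Kcnh7 in these 2 comparisons excluded 0 before adjustment, and none of the values passed after it. The test called 0% of all genes in each comparison, with 2639 genes at an unadjusted p under 0.05 in C versus RS3 and 1218 in RS3 versus RS7. Limma-voom called 0 of the 3 genes in both comparisons and DESeq2 called 0 in RS3 versus RS7, while in C versus RS3 its independent filtering gave the 3 genes no adjusted p. Single rats weighed on some values. From C to RS3, Kcnh5 was at 0.30 without RS3 rat 9, and from RS3 to RS7, Kcnj4 ranged from -0.99 without RS7 rat 5 to -0.19 without RS3 rat 7. Groups did not overlap for 2.28% and 1.54% of all genes, and for none of the 3. For Kcnh5, in the order AS, C, RS3, RS7, no difference between neighbouring groups thus passed the threshold after adjustment over all genes tested. The same holds for Kcnh7 and, in the reverse order, for Kcnj4. A p that misses the threshold does not show that the groups had equal levels.

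**Figure D2:**
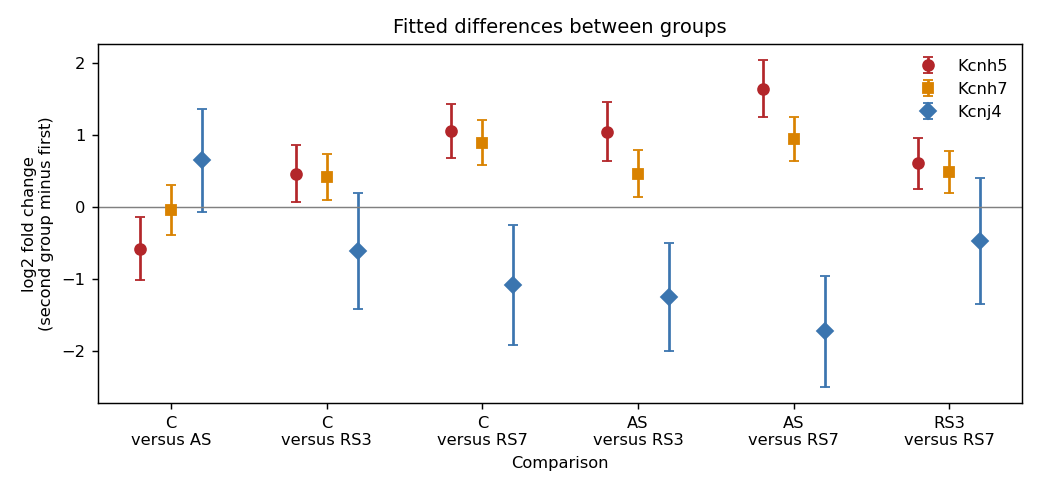
Fitted log2 fold changes (y axis, second group minus first) for the 6 group comparisons (x axis), with 95% intervals from the edgeR fit to 5 rats per group. Kcnh5 and Kcnh7 lie above 0 and Kcnj4 below 0 in every comparison with RS7, and in C versus AS Kcnh5 (-0.58) and Kcnj4 (0.64) have the opposite signs.

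The rats that the study left out for poor libraries took no part in choosing the genes. There is 1 per group, so no test was made, and the intervals are exact 95% Poisson intervals that cover counting error only. Kcnh5 was 4.93 CPM in C rat 20 (3.59 to 6.59), 4.59 in AS rat 18 (2.37 to 8.02), 9.37 in RS3 rat 8 (7.41 to 11.7) and 11.5 in RS7 rat 1 (9.57 to 13.8). The order of these 4 rats was that of the retained group means, with C rat 20 and AS rat 18 inside each other's intervals. Kcnh7 was 3.83 CPM in C rat 20, 3.06 in AS rat 18, 4.03 in RS3 rat 8 and 9.15 in RS7 rat 1. Here RS7 rat 1 stood above the other 3 rats, which lay inside each other's intervals. Kcnj4 was 1.31 CPM in C rat 20 (0.679 to 2.30) and 3.06 in AS rat 18 (1.32 to 6.03). It was 1.54 CPM in RS3 rat 8 (0.821 to 2.64) and 0.476 in RS7 rat 1 (0.155 to 1.11). The raw counts were 12, 8, 13 and 5 in that order of rats. In CPM the AS rat was highest and the RS7 rat lowest. The intervals of these 2 rats did not overlap, but each overlapped those of the C and RS3 rats.

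Within the groups, Kcnh5 and Kcnh7 varied together. Deviations of log2 CPM from the group mean, which hold none of the group differences, had a Pearson r of 0.712 over the 20 rats (permutation p = 0.0024, adjusted p = 0.0072 over 3 pairs) and a Spearman rho of 0.749 (permutation p = 0.00128, adjusted p = 0.00384). The sign of r was positive in 4 of 4 groups, and r was 0.776 without the 2 rats farthest from the median of Kcnh5. These p values set the pair against no relation, not against other genes. Over 16201 other genes, the top percentile of within-group r began at 0.686 for Kcnh5 and at 0.570 for Kcnh7. The r of 0.712 lay above both, but Grin2a (r = 0.890) was closer to Kcnh5 and Taok1 (r = 0.828) to Kcnh7. A relation particular to these 2 channels is thus not shown. Kcnh5 and Kcnj4 had an r of -0.249 (permutation p = 0.322, adjusted p = 0.483), a rho of -0.305 (permutation p = 0.224, adjusted p = 0.336) and an r of -0.129 without the 2 farthest rats. Kcnh7 and Kcnj4 had an r of -0.111 (permutation p = 0.676) and a rho of -0.083 (permutation p = 0.749), which adjustment left as they were, and an r of 0.077 without the 2 farthest rats. The opposite direction of Kcnj4 between groups was therefore not detectable as a relation between rats of a group. The values of a rat come from 1 library and 1 dissection.

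Genes whose within-group pattern was most like that of each channel were sought among 16201 others, of which 778 had a symbol. For Kcnh5 the nearest 3 with a symbol were Grin2a, an NMDA receptor subunit (r = 0.890), Slc8a1, a sodium-calcium exchanger (r = 0.871), and Fzd3, a Wnt receptor (r = 0.866). For Kcnh7 they were the kinase Taok1 (r = 0.828), Fzd3 again (r = 0.821) and Rasal2, a regulator of Ras (r = 0.769). For Kcnj4 they were Trh, thyrotropin-releasing hormone (r = 0.821), Isl1, a LIM-homeodomain transcription factor (r = 0.818), and Prlhr, the receptor of prolactin-releasing peptide (r = 0.790). Each r is over the 20 rats, is the highest of many and has no p. Kcnh5 and Kcnh7 shared Fzd3 among these genes, and Kcnj4 shared none with them. The symbols cover only genes that the study had listed as changed, which limits what could be named.

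Some transcripts that mark regions differed between rats along with Kcnh5 or Kcnj4, whereas no marker list had a relation with Kcnh7 that passed adjustment. All 22 genes of the 5 marker lists were detected in every retained rat. Each list was summed as CPM, so its most abundant genes weigh most. In the dorsal thalamus list, Plcb4 and Ntng1 had means of 292 and 237 CPM in C, against 11.5 (Rora) to 76.1 (Lef1) for the others. In the GABAergic list, Gad2 and Gad1 had 482 and 257 CPM in C, against 2.95 (Dlx6) to 93.9 (Slc32a1) for the others. The summed level of 6 dorsal thalamus markers (Tcf7l2, Lef1, Rora, Rorb, Ntng1 and Plcb4) was 538 to 723 CPM in C, 534 to 771 in AS, 545 to 863 in RS3 and 777 to 1020.5 in RS7, so that every RS7 rat lay above every C and AS rat, as for Kcnh5 and Kcnh7. Inside the groups, this sum had an r of 0.719 with Kcnh5 (permutation p = 0.00105, adjusted p = 0.00787 over 15 relations of a channel with a list), a rho of 0.666 (adjusted permutation p = 0.0166) and an r of 0.653 without the 2 farthest rats. With Kcnh7 its r was 0.492 (permutation p = 0.0467, adjusted p = 0.14) and its rho 0.462 (adjusted permutation p = 0.156). All 6 markers had higher values in RS7 than in C, with a median log2 fold change of 0.41 against -0.01 over all genes tested, and none was called. In AS versus RS7 the median was 0.46, and 2 of the 6 were called higher, Rora at 1.14 (SE 0.210, edgeR adjusted p = 0.0117) and Rorb at 0.44 (SE 0.0902, edgeR adjusted p = 0.0151). The part of thalamic tissue in the differences of Kcnh5 and Kcnh7 was not tested.

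Kcnj4 varied with the markers of neurosecretory hypothalamus. The sum of Avp (vasopressin), Oxt (oxytocin), Trh and the transcription factor gene Sim1 was 22.4 to 287 CPM in C, 37.8 to 325 in AS, 13.1 to 145 in RS3 and 7.66 to 35.9 in RS7. RS3 rat 7 and RS7 rat 5, the rats with the most Kcnj4 in their groups, also had the highest sum there. AS and RS7 did not overlap, and C and RS7 overlapped only through C rat 23, at 22.4 CPM. The within-group r with Kcnj4 was 0.796 (permutation p = 5e-05, adjusted p = 0.00075 over the 15 relations), the rho was 0.883 (permutation p = 1e-05, the smallest that the permutations can give, adjusted p = 0.00015), and r was 0.801 without the 2 farthest rats. Trh is part of this sum and was also the gene with a symbol most like Kcnj4 (r = 0.821), so these results are not separate. All 4 markers had lower values in RS7 than in AS, with a median log2 fold change of -2.91, and than in C, with a median of -2.66, and none was called in either comparison. GABAergic markers (Gad1, Gad2, Slc32a1, Dlx5 and Dlx6) summed to 591 to 1004 CPM in C, 689.7 to 985 in AS, 493 to 681 in RS3 and 480.4 to 643 in RS7. Their within-group r with Kcnj4 was 0.503, with a rho of 0.666 and an r of 0.789 without the 2 farthest rats, given as a description with no p because the list was shortened after its values had been seen. Of the 5 GABAergic markers, all lower in RS7 than in AS, only Gad1 was called in that comparison, at -0.71 (SE 0.132). Hypothalamic identity genes (Isl1, Gal, Calcr and Lhx9) summed to a median of 75.5 CPM in C, 65.4 in AS, 51.9 in RS3 and 39.7 in RS7. Of these 4, Lhx9 ran the other way, from a mean of 7.56 CPM in C to 12.7 in RS7. The sum had no relation to the 3 channels that passed the adjustment (lowest adjusted permutation p for r = 0.143, for Kcnh5). Its largest part was Calcr, with a mean of 39.4 CPM in C against 10.1 for Isl1. Isl1 by itself was among the genes most like Kcnj4, with a within-group r of 0.818, so the sum does not speak for each of its genes. Astrocyte markers (Slc1a2, Slc1a3 and Aqp4) summed to between 1751 and 2295 CPM in the 20 rats, with an r of -0.554 with Kcnh5 (permutation p = 0.0133, adjusted p = 0.0663). These markers differed in direction from AS to RS7. Slc1a2 was called higher at 0.42 (SE 0.0784, edgeR adjusted p = 0.00949), while Slc1a3 at -0.13 and Aqp4 at 0.04 were not called. The part of neurosecretory and GABAergic tissue in the differences of Kcnj4 was not tested. The 15 relations were added after the data had been seen, and the markers come from lists called on these rats, so their direction between groups is not independent evidence.

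**Figure D3:**
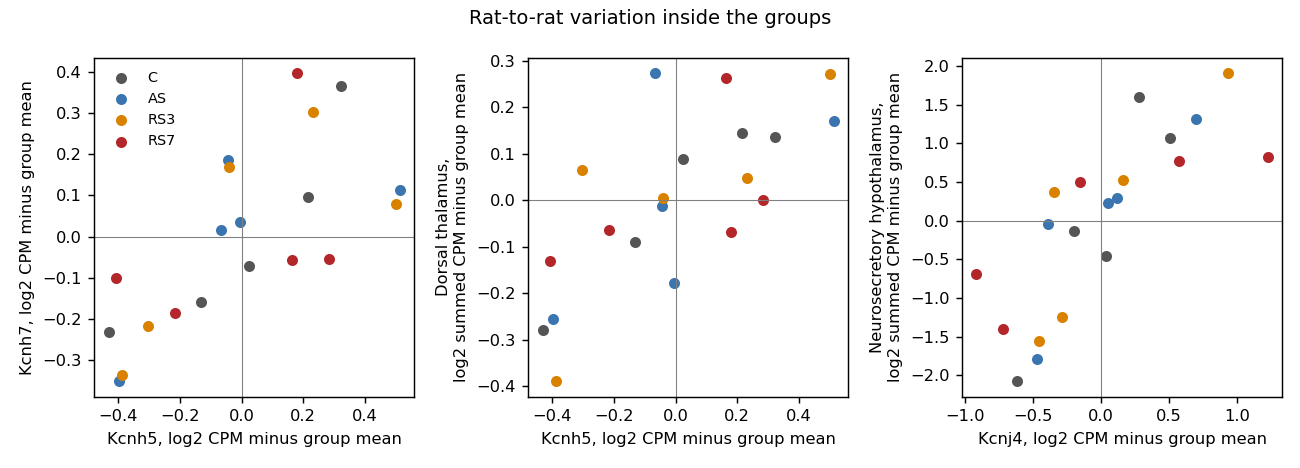
Deviations from the group mean (both axes, log2 scale) in the 20 retained rats, coloured by group, for Kcnh7 against Kcnh5 (r = 0.712), the dorsal thalamus sum against Kcnh5 (r = 0.719) and the neurosecretory sum against Kcnj4 (r = 0.796). Points run from lower left to upper right in all 3 panels.

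**Figure D4:**
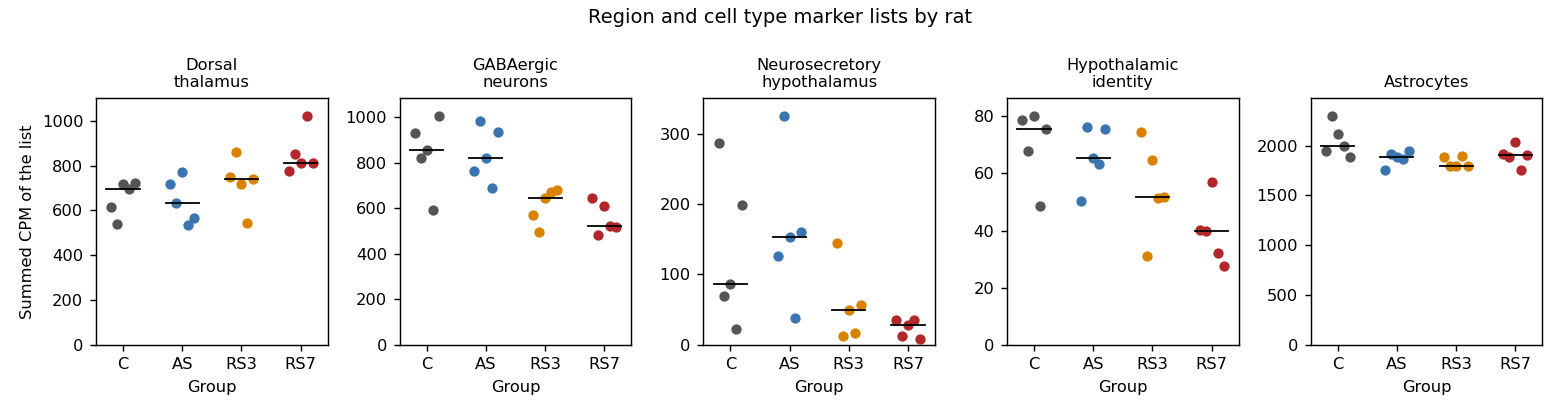
Summed CPM (y axes, starting at 0) of the 5 marker lists in each retained rat by group (x axis), with lines at the group medians. The dorsal thalamus sum is higher in all RS7 rats (777 CPM or more) than in all C and AS rats, and the neurosecretory sum is at most 35.9 CPM in RS7.

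Of other genes named as potassium channel subunits or their partners, 12 had an identifier, all from lists that the study called on these rats. Neither their direction nor the number called among them is therefore independent evidence. Beside 1.67% of all genes tested, which were not chosen this way, 2 of the 12 were called higher in AS versus RS7 and none lower. These were Kcnq3, a subunit of the M-current channel (log2 fold change 0.75, SE 0.142, edgeR adjusted p = 0.0129), and Kcna2, a delayed rectifier of axons (0.32, SE 0.0727, edgeR adjusted p = 0.0275). Of the 12, 11 had a value above 0, with a median of 0.33 against -0.01 over all genes tested. The exception was Kcng1, a modulatory subunit with no current of its own, at -0.69 (SE 0.212, edgeR adjusted p = 0.0947). In C versus RS7, edgeR called 0 of the 12 and the median was 0.25, again with 11 values above 0 and Kcng1 at -0.92 (SE 0.210, adjusted p = 0.0549). Kcnj6 and Kcnj12, inward rectifiers like Kcnj4, had values of 0.35 (SE 0.113, edgeR adjusted p = 0.126) and 0.38 (SE 0.0981, adjusted p = 0.0736) in C versus RS7, where Kcnj4 had -1.09. In C versus AS, 3 of the 12 lay above 0 and the median was -0.10.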

How the data were processed

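RNA from the rPH tissue block of 24 rats was sequenced as polyadenylated RNA in paired reads. Per the study's methods and the submitters' processing notes, the authors trimmed reads with Trimmomatic 0.36, mapped them to rn6 with HISAT2 2.0.5 and deposited whole-number counts per Ensembl gene from featureCounts (Subread), in 1 table. Whether counting used strand is not given in the sources used here, so reads of overlapping antisense genes cannot be told apart. The table's header holds 2 blank cells more than its values, and its 24 rat names were taken in order. Of 1296 sets with 1 rat left out per group, only that without RS7 rat 1, RS3 rat 8, AS rat 18 and C rat 20 gave the base means listed by the study, for 808 of 808 genes (relative tolerance 1e-06). Totals were 8087697 to 16947298 counts in the 20 retained rats (median 12385781) and 4744531 to 14299345 in the 4 others.

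Counts were analysed in R 4.3.3 with edgeR 4.0.16 (filterByExpr with a minimum count of 10, TMM, robust quasi-likelihood fit, 4 groups in 1 fit). Adjusted p values of this fit are Benjamini-Hochberg values over the 16202 genes tested, and a call is an adjusted p of at most 0.05. Each alternative fit was adjusted over its own set of genes. DESeq2 was run without the filter on low counts and used its own independent filtering. DESeq2 1.42.0 and limma-voom 3.58.1 were alternatives, limma-voom always with sample quality weights. Further alternatives were other scaling, no filter, other sets of rats and leaving out each rat in turn. The edgeR p values set group differences against the spread between rats, and the correlation p values come from permuting rats within their groups. CPM used TMM-scaled totals, and those of the 4 left-out rats were scaled with factors of all 24 rats. Correlations used log2 CPM (prior count 2) minus group means, with 100000 two-sided permutations within groups, adjusted over 3 pairs or over 15 relations with marker lists. The test was checked on simulated counts.

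The 3 genes, the marker lists and the comparisons were chosen with earlier results of these data known. Genes named are the 3 channels, other genes whose symbol begins with Kcn (at most 12), the 3 genes with a symbol that are most like each channel, and the marker lists. A gene of the GABAergic list is not reported here, and that list was summed without it. Symbols were taken from the study's gene lists (779 genes), whose comparison columns of fold changes and p values were not used. Promoters were taken from RefSeq (GRCr8) by symbol.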

Additional observations from a re-analysis of the deposited data

Results flagged for a closer look

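Kcnh7 in RS7 rat 6 was 8.52 CPM, and its gap to the nearest RS7 rat was 0.807 of the range of that group, above Dixon's 95% critical value of 0.71 for 5 rats. Of 12 groups checked (3 genes in 4 groups) it was the only one, and chance alone marks about 1 group in 20. Without that rat the log2 fold change of Kcnh7 was 0.78 in C versus RS7 and 0.83 in AS versus RS7.

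In the rats that the study left out, which entered a fit only in the alternative with all 24 rats, Kcnh5 was 9.37 CPM in RS3 rat 8 and 11.5 CPM in RS7 rat 1, and Kcnh7 was 9.15 CPM in RS7 rat 1. Each interval lay above that of C rat 20, the control rat of the same set, by counting error alone and without replicates.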

How the results depend on the processing

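No paired analysis was possible because each rat has a number of its own and no number is shared between groups. The 18 log2 fold changes of the 3 genes were recomputed under 27 alternatives, and 483 of the 486 values kept their sign. The other 3 were Kcnh7 in C versus AS, at 0.016 without C rats 21 and 22 and RS7 rat 4 (a set taken from an earlier examination of these data), 0.046 without C rat 22 and 0.036 without AS rat 16, against -0.05 with all, and single rats left out gave -0.098 to 0.046. The number of genes called moved far more, and the cause was not tested. It was 0 in C versus RS3 but 38 with DESeq2, and 0 to 17 when rats were left out in turn (17 without C rat 23). In C versus RS7 it was 24, but 419 with DESeq2, 164 with limma-voom, 64 without a filter, 46 with all 24 rats, 0 without C rats 21 and 22 and RS7 rat 4, and 0 to 560 when rats were left out in turn (0 without 1 of RS7 rats 3 and 6 or C rats 19 and 21, and 560 without RS7 rat 4). In AS versus RS3 it was 0, and 1 with DESeq2. In AS versus RS7 it was 270, but 568 with DESeq2, 868 with limma-voom, 129 with all 24 rats, 433 with only the 2 groups compared, and 46 to 403 when rats were left out in turn (46 without AS rat 17). The correlation of Kcnh5 with Kcnh7 was 0.669 to 0.753 when rats were left out in turn and 0.569 to 0.717 under the other alternatives. That of Kcnh7 with Kcnj4 was -0.221 to 0.050, positive without RS7 rat 6. Leaving out rats in turn for the correlations, and all alternatives for the relations with marker lists, were added after the data had been seen. The relation of Kcnj4 with the neurosecretory sum was 0.688 to 0.848 and that of Kcnh5 with the dorsal thalamus sum 0.667 to 0.802 under all of these. That of Kcnh7 with the dorsal thalamus sum passed an unadjusted p of 0.05 in 11 of 23 alternatives, and that of Kcnj4 with the GABAergic sum was 0.339 to 0.667. Depth limits Kcnj4 most, with as few as 4 counts in a rat.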
